A study of Ovis aries with 6 samples.

Results

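The fibroblast growth factor (FGF) genes described here are 6 ligand genes, FGF1, FGF2, FGF5, FGF7, FGF10 and FGF18, and the 4 receptor genes FGFR1, FGFR2, FGFR3 and FGFR4. They were taken by their symbols, with no threshold on their values, and all 10 were found among the 28394 genes of the files. The transcripts came from skin cut behind the shoulder blade of 3 Super Merino (SM) and 3 Small Tail Han (STH) sheep, with 1 poly(A) RNA library for each animal. SM is a fine wool breed and STH a coarse wool breed, and the animals were ewes kept on the same farm with the same feed and sampled in autumn, when the follicles were taken to be growing. The sample labels give an age of 9 months for all 6 sheep, whereas the study's methods give a younger age. Sheep 128, 30034 and 30126 are SM, and sheep XW3, XW5 and XW8 are STH. Each library is a piece of whole skin, so that a lower value in bulk RNA can come from fewer cells of a type or from less RNA per cell, and these cannot be told apart.

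FGF ligands are secreted proteins that bind receptor tyrosine kinases together with heparan sulphate on the cell surface. The activated receptor phosphorylates the adaptor FRS2, which passes the signal to RAS and the MAP kinases, and the Sprouty and DUSP proteins limit it in return. In hair follicles the dermal papilla and the epithelium signal to each other through FGFs. FGF5 is known for ending the growth phase of the follicle, and its loss gives long hair in several mammals. FGF7 and FGF10 are made by mesenchymal cells and act on the epithelial splice form of FGFR2.

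In SM skin, 4 of the 6 ligands (FGF1, FGF5, FGF7 and FGF18) had means between 1.60-fold and 2.29-fold below those of STH skin, whereas FGF2 and FGF10 had nearly equal means. FGFR1 was 1.34-fold higher in SM sheep and FGFR3 was 1.20-fold higher in STH sheep, with no overlap between the breeds in either gene. None of the 10 genes passed the thresholds of an adjusted p under 0.05 and a 1.5-fold change in edgeR's quasi-likelihood test, and neither did any other of the 15320 genes tested (percent called, 0%). DESeq2 called 439 genes (2.87%), edgeR's likelihood ratio test 352 (2.3%) and limma-voom 0. At an unadjusted p under 0.05 there were 4 of the 10 genes, against 18.0% of all genes. FGFR1 was higher in SM skin, as were 7.21% of all genes at this p, and FGF5, FGF7 and FGF18 were higher in STH skin, as were 10.8%. In 4 of the 10 the breeds did not overlap, against 25.6% of all genes. All SM sheep were above all STH sheep in FGFR1, as in 12.3% of all genes, and below them in FGF1, FGF18 and FGFR3, as in 13.3%. The median log2 fold change, SM over STH, was -0.70 over the 6 ligands and 0.15 over the 4 receptors, against 0.02 over all genes.

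The total counts of the 6 libraries ranged from 28870583 to 44645091, at which 3 counts correspond to between 0.0664 and 0.0993 CPM, the count of a gene scaled to a common library size by the TMM method. This floor covers counting error only. The labelled tissue was checked with markers of 10 cell types, and markers of each were detected in all 6 sheep. The summed CPM of 6 suprabasal keratinocyte markers ranged from 3592 to 4425 in SM and from 4662 to 8479 in STH sheep, although KRT1, KRTDAP and SBSN among them overlapped between the breeds. The sum of 6 smooth muscle markers was also higher in every STH sheep (1112 to 1332 in SM, 1761 to 2243 in STH), with 5 of the 6 above the SM range in each. The sum of 6 adipocyte markers (32.9 to 68.2 in SM, 141 to 179 in STH) was mostly FABP4, with 27.8 to 62.6 CPM in SM and 128 to 169 CPM in STH sheep. LPL was likewise higher in every STH sheep, whereas ADIPOQ, PLIN1, LEP and CIDEC overlapped. The sums for basal and wool follicle keratinocytes, fibroblasts, dermal papilla, endothelium, immune cells and melanocytes overlapped between the breeds. Without SM sheep 128, 7.59% of all genes passed both thresholds.

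**Figure D1:**
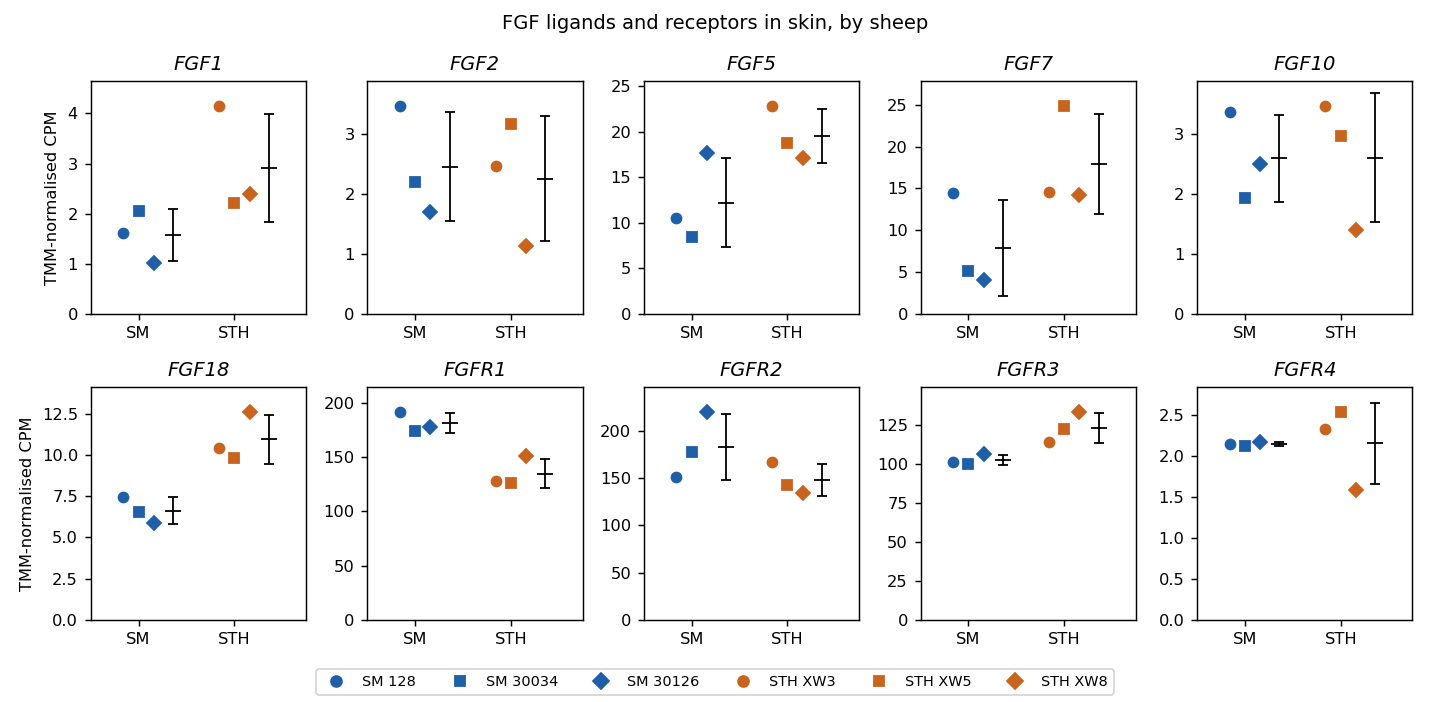
TMM-normalised CPM of each FGF gene in each sheep (y axis, starting at 0), with SM sheep in blue and STH sheep in orange and the mean ± SD of 3 sheep as black bars. The breeds are apart for FGF1, FGF18, FGFR1 and FGFR3, and SM sheep 128 lies among the STH sheep for FGF7.

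FGF5 (gene 100642180), the ligand that limits hair length, lies on chromosome 6 from 94482513 to 94504281, in the assembly Oar_v4.0 that all positions here refer to. Its CPM was 10.5 in 128, 8.48 in 30034 and 17.7 in 30126 (SM), against 22.9 in XW3, 18.8 in XW5 and 17.1 in XW8 (STH). SM sheep 30126 lay within the STH range, and the other two SM sheep were below every STH sheep. Mean levels were 12.2 ± 4.85 CPM in the SM and 19.6 ± 2.97 CPM in the STH group (SD, n = 3 each), a log2 fold change of -0.68 (standard error 0.28, 95% interval -1.31 to -0.05). The adjusted p was 0.265 in edgeR's quasi-likelihood test, and the unadjusted p was 0.0373. Without SM sheep 30126 the log2 fold change was -1.03, with an adjusted p of 0.236 by the same edgeR test. Without SM sheep 30034 it was -0.49, with an adjusted p of 0.443 by that test. The study also measured FGF5 protein in blood by ELISA and reported no significant difference between the breeds. That is a level in blood and not the RNA of skin.

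Among the genes whose log2 CPM followed FGF5 most closely over the 6 sheep were FRZB (Pearson r = 0.999), a secreted WNT antagonist, and AHCYL1 (r = 0.979). The points share the library and its scaling, and 58 of the tested genes (0.38%) had an r over 0.9 with FGF5. FRZB and AHCYL1 were picked for their high r out of all tested genes, over only 6 sheep. FRZB was low, with 2.26 ± 0.573 CPM in the SM and 3.08 ± 0.259 CPM in the STH group (SD, n = 3 each).

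FGF7 (gene 443095), also called keratinocyte growth factor, lies on chromosome 7 from 57740594 to 57804130. The SM sheep gave 14.5 (128), 5.11 (30034) and 4.03 CPM (30126), the STH sheep 14.6 (XW3), 24.9 (XW5) and 14.3 CPM (XW8). SM sheep 128 was level with 2 of the STH sheep, whereas the other two SM sheep were far below. The log2 fold change was -1.20 (standard error 0.47, 95% interval -2.26 to -0.13), with an adjusted p of 0.260 in edgeR's quasi-likelihood test. This was the largest difference among the 10 genes and also the one that depended most on 1 animal. Without SM sheep 128 it was -1.97, with an adjusted p of 0.0168 in the same edgeR test. FGF7 then passed both thresholds, as did 7.59% of all genes. The summed CPM of 6 fibroblast markers (COL1A1, COL1A2, COL3A1, PDGFRA, DCN and LUM) was 20936.5 in SM sheep 128 and 20971 in STH sheep XW5, which had the highest value of FGF7. It was 17298 in XW3 and 16993 in XW8. It was lowest, 14610 and 14707, in SM sheep 30034 and 30126, which also had the least FGF7. The sum was mostly COL1A1, COL1A2 and COL3A1, with 8048, 4867 and 5676 CPM in sheep 128. PDGFRA went otherwise, being highest in SM sheep 30034 (224 CPM) and lowest in STH sheep XW8 (161 CPM). The other markers of the list were each lowest in 30034 and 30126. The part of these markers in the FGF7 values was not tested. By the study's mapping statistics, SM sheep 30126 and 30034 also had the smallest intronic shares of uniquely mapped fragments. That share was largest in SM sheep 128 rather than in XW5, and its part in the FGF7 values was not tested either. The span of FGF7 lies wholly within that of FAM227B on the opposite strand, and the sources do not say that the libraries kept the strand. FAM227B itself had between 2 and 18 counts, against 158 to 1050 for FGF7.

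FGF10 (gene 443074), the closest relative of FGF7 among the 6 ligands, lies on chromosome 16 from 30460032 to 30555613 and was low. Its CPM was 3.37 in 128, 1.93 in 30034 and 2.50 in 30126 (SM), against 3.47 in XW3, 2.96 in XW5 and 1.39 in XW8 (STH), from 42 to 125 counts. The breeds overlapped throughout, and the log2 fold change was -0.01 (standard error 0.41). Its 95% interval reached from -0.94 to 0.91, so that a change past 1.5-fold in either direction lies within it.

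FGF18 (gene 780460), a ligand known from bone and cartilage growth and from the resting phase of hair follicles, lies on chromosome 16 from 3263015 to 3303505. Per sheep, the level was 7.47 CPM in 128, 6.53 in 30034 and 5.89 in 30126, all SM, against 10.4 in XW3, 9.81 in XW5 and 12.6 in XW8, all STH. Every STH sheep was above every SM sheep. Mean CPM was 6.63 ± 0.797 for SM against 10.95 ± 1.47 for STH (SD, n = 3 each), a 1.65-fold difference (log2 fold change -0.72, standard error 0.20, 95% interval -1.18 to -0.27). FGF18 had the smallest p of the 10 genes, 0.00619 before and 0.240 after adjustment in edgeR's quasi-likelihood test. With DESeq2 the adjusted p was 0.0463, and FGF18 was then the only member to pass both thresholds, as did 2.87% of all genes. The adjusted p was 0.0886 in edgeR's likelihood ratio test and 0.185 in limma-voom. Leaving out each sheep in turn kept the log2 fold change between -0.82 and -0.61, the narrowest range among the 4 ligands with lower means in SM skin. The summed smooth muscle markers, 3 of the 6 suprabasal markers, FABP4 and LPL were likewise higher in every STH sheep, and their part in the FGF18 values was not tested.

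FGF1 (gene 101109353), which can bind all 4 receptors and lacks a classical signal peptide, lies on chromosome 5 from 50926418 to 51038658. Its CPM was 1.62 in 128, 2.06 in 30034 and 1.02 in 30126 (SM), against 4.15 in XW3, 2.20 in XW5 and 2.38 in XW8 (STH). The gap between the breeds, from 2.06 to 2.20 CPM, was small beside the distance of XW3 from the other STH sheep. The log2 fold change was -0.89 (standard error 0.40, 95% interval -1.81 to 0.03, adjusted p = 0.285 in edgeR's quasi-likelihood test), from 40 to 128 counts. Without XW3 it was -0.55.

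FGF2 (gene 443306), which is likewise released without a signal peptide, lies on chromosome 17 from 34481195 to 34535764. The SM sheep gave 3.47 (128), 2.19 (30034) and 1.71 CPM (30126), the STH sheep 2.46 (XW3), 3.17 (XW5) and 1.13 CPM (XW8). The breeds overlapped, and the log2 fold change of 0.11 (standard error 0.45, 95% interval -0.91 to 1.14) turned negative without SM sheep 128 and without STH sheep XW8. It also did so when each sheep's trend of counts on exon length was removed. The span of FGF2 overlaps 17835 bases of NUDT6 on the opposite strand, a gene with 361 to 1088 counts against 34 to 134 for FGF2, and reads of such a pair cannot be told apart without strand.

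**Figure D2:**
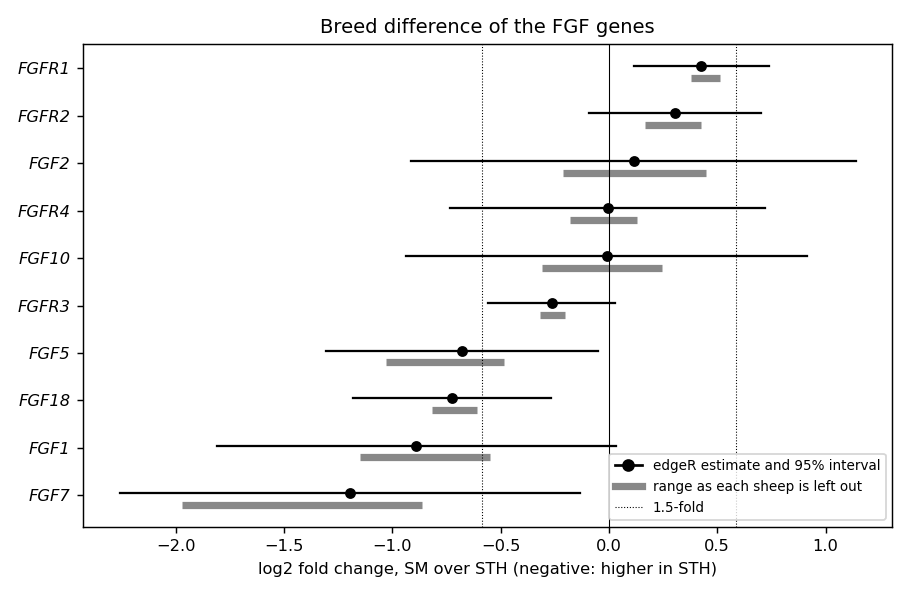
Log2 fold change of each FGF gene, SM over STH (x axis), with the 95% interval from edgeR's quasi-likelihood fit as a thin line and the range as each of the 6 sheep was left out as a grey bar; dotted lines mark 1.5-fold. The intervals of FGF5, FGF7, FGF18 and FGFR1 exclude 0, and the grey bars of FGF2, FGF10 and FGFR4 cross it.

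FGFR1 (gene 780507), a receptor typical of mesenchymal cells, lies on chromosome 26 from 32178502 to 32228305. Per sheep, the level was 191 CPM in 128, 174 in 30034 and 178 in 30126, all SM, against 128 in XW3, 126 in XW5 and 150.5 in XW8, all STH. All SM sheep were above all STH sheep. Mean CPM was 181 ± 9.12 for SM against 135 ± 13.7 for STH (SD, n = 3 each), a log2 fold change of 0.43 (standard error 0.14, 95% interval 0.11 to 0.74). The adjusted p was 0.247 and the unadjusted p 0.0131 in edgeR's quasi-likelihood test, and leaving out single sheep kept the change between 0.38 and 0.51. It was below 1.5-fold in all 15 alternatives. The fibroblast marker sums overlapped between the breeds, and their part in the FGFR1 values was not tested.

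FGFR2 (gene 443548), whose splice forms serve epithelium or mesenchyme, lies on chromosome 22 from 40345779 to 40447032. The gene counts do not separate its splice forms. Its CPM was 151 in 128, 178 in 30034 and 219.8 in 30126 (SM), against 167 in XW3, 143 in XW5 and 134 in XW8 (STH). The highest values were those of 2 SM sheep, but SM sheep 128 was below XW3. The log2 fold change was 0.30 (standard error 0.17, 95% interval -0.09 to 0.70, adjusted p = 0.347 in edgeR's quasi-likelihood test), and without SM sheep 30126 it was 0.16.

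FGFR3 (gene 554324), a receptor of keratinocytes and cartilage, lies on chromosome 6 from 115991934 to 116002382. The SM sheep gave 101 (128), 100.03 (30034) and 106 CPM (30126), the STH sheep 114 (XW3), 122 (XW5) and 133 CPM (XW8). The breeds did not overlap, with means of 102 ± 3.23 CPM for SM against 123 ± 9.55 CPM for STH (SD, n = 3 each). The log2 fold change was -0.26 (standard error 0.13, 95% interval -0.56 to 0.03, adjusted p = 0.302 in edgeR's quasi-likelihood test), and it was -0.12 when the trend on exon length was removed. The suprabasal keratinocyte markers KRT10, DSG1 and DSC1 were also higher in each STH sheep than in any SM sheep, the other 3 overlapped, and their part in the FGFR3 values was not tested.

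FGFR4 (gene 101120660), best known as the receptor of bile acid-regulating FGF signals in liver, lies on chromosome 5 from 36005627 to 36016774. Per sheep, the level was 2.15 CPM in 128, 2.13 in 30034 and 2.17 in 30126, all SM, against 2.33 in XW3, 2.53 in XW5 and 1.59 in XW8, all STH. The 3 SM sheep were nearly equal and lay inside the STH range, and the log2 fold change was -0.01 (standard error 0.32, 95% interval -0.74 to 0.72). It rested on 48 to 107 counts per sheep.

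To set the genes beside each other, the deposited RPKM were used, which are per exon length. The mean RPKM over all sheep (SD, n = 6) was 29.1 ± 5.39 for FGFR1, 21.6 ± 4.55 for FGFR2 and 17.6 ± 1.70 for FGFR3. It was 6.34 ± 2.14 for FGF5, 3.49 ± 1.27 for FGF2, 3.28 ± 1.88 for FGF7 and 2.30 ± 0.639 for FGF18. At the low end were FGF10 with 0.656 ± 0.206, FGFR4 with 0.395 ± 0.0584 and FGF1 with 0.338 ± 0.161. Among these 6 ligands FGF5 had the highest mean level, at 4.96 ± 2.00 RPKM in the SM and 7.71 ± 1.33 RPKM in the STH group (SD, n = 3 each). The place of FGF2 depends on its short gene model, whose exon length was 12.4% of that of FGFR1, so that it had the second highest RPKM among the ligands with at most 134 counts.

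In 4 of the 9 neighbouring pairs of this order the direction was the same in all 6 sheep. These were FGFR1 over FGFR2, with a mean log2 difference of 0.43 ± 0.28 (SD, n = 6), FGFR3 over FGF5 with 1.55 ± 0.46 (SD, n = 6), FGF18 over FGF10 with 1.81 ± 0.72 (SD, n = 6) and FGF10 over FGFR4 with 0.66 ± 0.34 (SD, n = 6). For each of these the exact two-sided sign permutation test gave p = 0.0313, the smallest that 6 sheep allow. The adjusted p of this test over the 9 pairs was 0.0703. The pairs and their direction were taken from the mean RPKM of the same 6 sheep, so the test is no independent check of the order. For FGFR2 over FGFR3, FGF5 over FGF2, FGF2 over FGF7, FGF7 over FGF18 and FGFR4 over FGF1 the direction changed between sheep, and the adjusted p of the exact permutation test lay between 0.169 and 0.531.

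**Figure D3:**
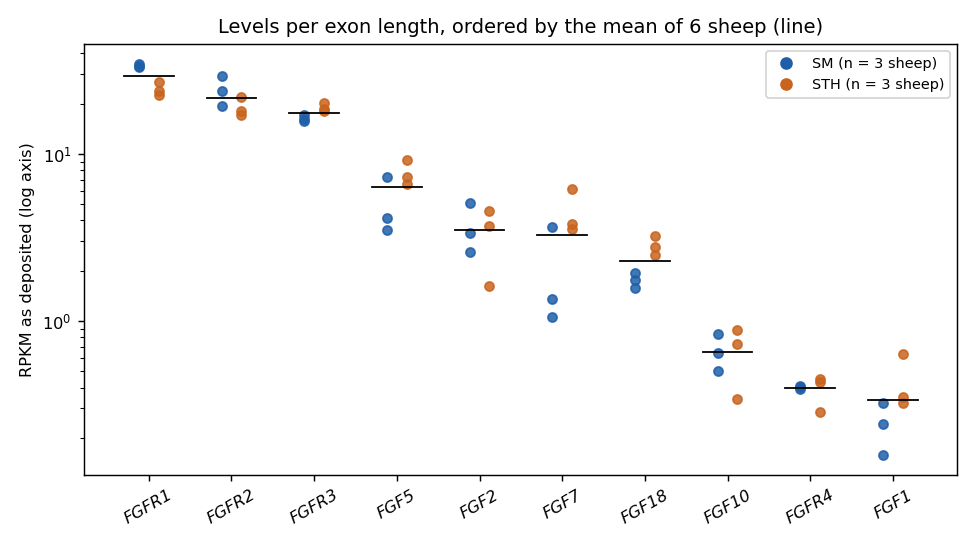
Deposited RPKM of each FGF gene in each sheep on a log axis, ordered by the mean of the 6 sheep (black line), with SM sheep in blue and STH sheep in orange. FGFR1, FGFR2 and FGFR3 lie above the 6 ligands in mean level, FGF5 leads these 6 ligands at 6.34 RPKM, and FGF10, FGFR4 and FGF1 lie below 1 RPKM.

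As a share of the summed RPKM of the 4 receptors, FGFR3 made up 22.3% in 128, 22.0% in 30034 and 21.2% in 30126 (SM), against 28.1% in XW3, 31.2% in XW5 and 31.4% in XW8 (STH). Its mean share was 21.8% ± 0.562 for SM against 30.2% ± 1.86 for STH (SD, n = 3 each). FGFR1 made up 45.4% ± 3.88 in the SM and 38.8% ± 2.60 in the STH group (SD, n = 3 each), where SM sheep 30126 and STH sheep XW8 were nearly equal, both at 41.8%. FGFR2 overlapped between the breeds, from 26.3% to 36.5%, and FGFR4 was at most 0.759% in any sheep. A share falls where another receptor is higher, so these values restate the differences of FGFR1 and FGFR3 without the scaling between libraries.

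**Figure D4:**
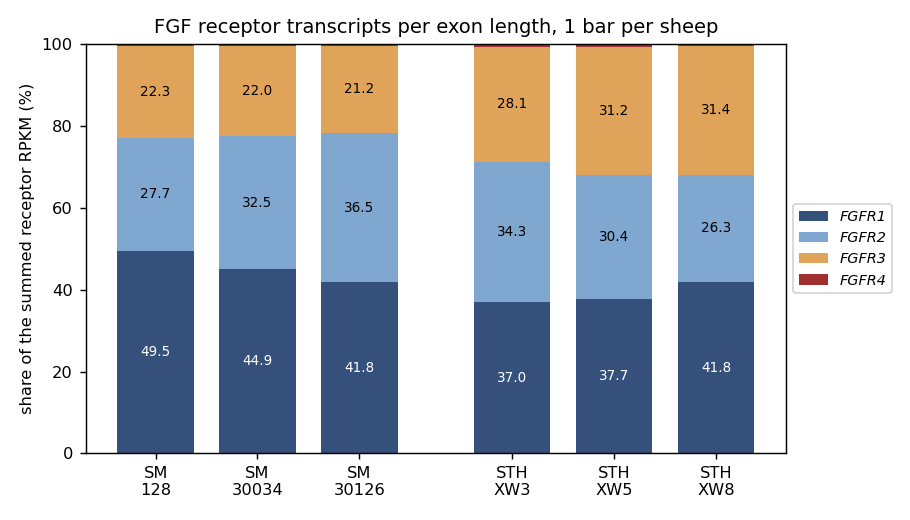
Share of each receptor in the summed RPKM of the 4 FGF receptors (y axis, percent), 1 bar per sheep. FGFR3 makes up 21.2% to 22.3% in the SM sheep and 28.1% to 31.4% in the STH sheep, and FGFR4 is a thin line at the top.

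A log2 ratio between 2 genes of the same library does not depend on how libraries are scaled. The log2 ratio of FGF5 to FGFR1 was -3.07 in 128, -3.24 in 30034 and -2.21 in 30126 (SM), against -1.36 in XW3, -1.62 in XW5 and -2.02 in XW8 (STH). It was lower in every SM sheep, by 1.17 on average (p = 0.1 in an exact two-sided permutation test, which 3 sheep against 3 cannot go below, and an adjusted p of 0.3 over 3 ratios). The log2 ratio of FGF7 to FGFR2 was -2.40, -4.13 and -4.78 in the same SM order, and -2.53, -1.54 and -2.25 in the same STH order. SM sheep 128 again lay among the STH sheep, and the exact permutation test gave p = 0.2 (adjusted p = 0.3). The log2 ratio of FGFR2 to FGFR1 was -0.50 ± 0.32 in the SM and -0.36 ± 0.28 in the STH group (SD, n = 3 each), with an exact permutation p of 0.6 (adjusted p = 0.6).

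The other genes of the pathway were taken from 5 lists with 75 genes, of which 71 were in the files under these symbols and 61 could be tested. None passed the thresholds in edgeR's quasi-likelihood test. An unadjusted p under 0.05 was reached by 11 of the 61, 4 of them with more RNA in SM skin and 7 in STH skin, which is 18.0% and the same share as among all genes. In 17 of the 61 the breeds did not overlap, which is 27.9% against 25.6% of all genes. The log2 fold changes had a median of 0.09, and 32 genes had a higher estimate for SM against 29 for STH.

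Of the 16 other FGF genes listed beside the receptors and the ligands above, only 6 had enough counts for a test. None had an unadjusted p under 0.05 in edgeR's quasi-likelihood test. The smallest p belonged to FGF11, an intracellular FGF homologue that is not secreted. It had 29.3 ± 2.84 CPM in the SM and 34.9 ± 5.36 CPM in the STH group (SD, n = 3 each). FGF21, an endocrine FGF of metabolism, had 7.96 ± 1.38 CPM (SD, n = 3) and 5.22 ± 2.80 CPM (SD, n = 3) in the same order. FGF22, of the same subfamily as FGF7 and FGF10, had 13.4 ± 2.73 CPM (SD, n = 3) and 11.2 ± 2.38 CPM (SD, n = 3) in the same order. Per length, the mean over the 6 sheep was 6.59 RPKM for FGF21, 5.86 RPKM for FGF11 and 5.83 RPKM for FGF22, beside 6.34 RPKM for FGF5 and 0.656 RPKM for FGF10. FGF3, FGF4, FGF6 and FGF20 had 0 counts in all 6 sheep, which allows up to 0.0664 to 0.0993 CPM in a library.

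Among the 15 tested co-receptors and binding proteins, FLRT3, a membrane protein that binds FGF receptors, was 1.78-fold higher in STH sheep, -0.83 on the log2 scale (standard error 0.26, adjusted p = 0.247). The glypican GPC3, a heparan sulphate proteoglycan, had 156 ± 11.6 CPM in the SM and 111 ± 22.7 CPM in the STH group (SD, n = 3 each), or 0.49 as log2 fold change (standard error 0.17, adjusted p = 0.250). HSPG2, the basement membrane proteoglycan perlecan, had 0.30 (standard error 0.14, adjusted p = 0.294). In all 3 genes, which were named for their small p, the breeds did not overlap. They did not overlap in 5 of the 15 (33.3%), against 25.6% of all genes. The adjusted p values of these and the following genes are those of edgeR's quasi-likelihood test.

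Among the 24 adaptors and transducers, 6 (25%, against 18.0% of all genes) had an unadjusted p under 0.05 and all 6 were higher in STH sheep, as were 10.8% of all genes. With the trend on exon length removed, 2 were higher in SM and 3 in STH sheep at this p. SOS2, a RAS exchange factor, had -0.69 (standard error 0.20, adjusted p = 0.247), and PIK3CA, a catalytic subunit of PI3 kinase, had -1.13 (standard error 0.37, adjusted p = 0.247). Without SM sheep 128, 6 of the 61 genes of the 5 lists passed both thresholds, beside 7.59% of all genes. Among them SOS1, SOS2, PIK3CA and BRAF were lower and SPRY4 was higher in SM sheep, SOS1 and BRAF being named after their values had been seen.

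Among the 10 feedback inhibitors tested, SPRY4, a Sprouty protein, had 50.2 ± 17.8 CPM in the SM and 28.1 ± 5.94 CPM in the STH group (SD, n = 3 each), or 0.84 as log2 fold change (standard error 0.27, adjusted p = 0.247). DUSP4, a MAP kinase phosphatase, had 0.44 (standard error 0.19, adjusted p = 0.272), and SPRED1, a Sprouty-related protein, had -0.22 (standard error 0.14, adjusted p = 0.381). The breeds did not overlap in any of these 3, which were named for their small p. They did not overlap in 4 of the 10 (40%), against 25.6% of all genes. Among the 6 target transcription factors, ETV5, whose transcription responds to FGF signals, had 75.2 ± 2.55 CPM in the SM and 56.1 ± 10.03 CPM in the STH group (SD, n = 3 each). On the log2 scale it differed by 0.42 (standard error 0.16, adjusted p = 0.256). Every SM sheep was above every STH sheep, as in 12.3% of all genes. ETV1, a related factor, had -0.53 (standard error 0.29, adjusted p = 0.329), and the immediate early gene EGR1 had 0.39 (standard error 0.22, adjusted p = 0.343). In both the breeds overlapped.

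**Figure D5:**
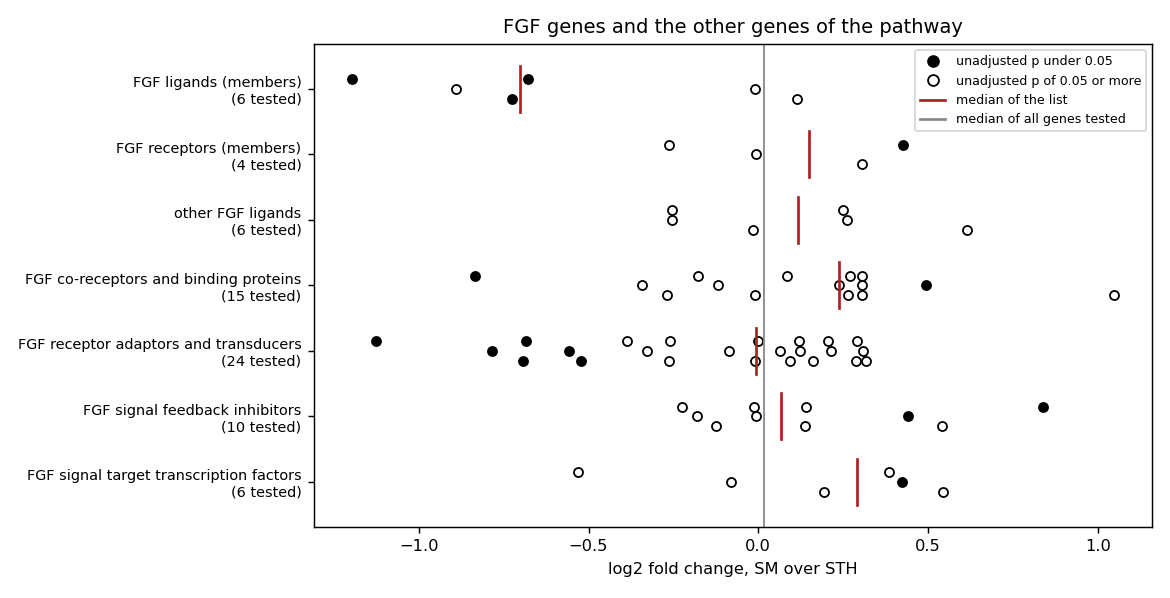
Log2 fold change, SM over STH (x axis), of the FGF ligands and receptors and of the tested genes of 5 other lists of the pathway, 1 point per gene, filled where the unadjusted p was under 0.05. The red line is the median of each list, -0.70 for the 6 ligands and 0.15 for the receptors, and the grey line the median of all genes tested.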

How the data were processed

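The data are 6 paired-end skin RNA libraries, 1 from each of 3 SM and 3 STH animals, which the sample labels assign to the breeds. Per the labels, reads were checked with FastQC. The authors used the RNA-seq plugin of CLC Genomics Workbench with the assembly Oar_v4.0 and deposited, for each gene and sheep, a total count (whole numbers, without normalization), an RPKM, a TPM and a value headed CPM. The deposited RPKM of each member is its count divided by the same exon length in every sheep. The deposited TPM are rescaled RPKM, and the deposited CPM is a score relative to an effective library size; neither was used. Which reads were counted, and whether with strand, is not given in the sources used here.

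A gene was tested where 3 or more sheep had 10 or more counts (15320 genes). Counts were normalised by TMM and tested with the quasi-likelihood test of edgeR 4.0.16 (R 4.3.3), breed being the only term. Benjamini-Hochberg adjustment ran over all tested genes, and calls needed an adjusted p under 0.05 and a change over 1.5-fold. Standard errors are the log2 fold change divided by the root of the F statistic. RPKM were compared as log2(RPKM + 0.01). DESeq2 1.42.0, limma 3.58.1 (voom) and the other alternatives are given at the end. The edgeR tests, DESeq2 and limma-voom were also tried on simulated counts with the means and dispersions of these data. As each sheep was left out, the genes tested were kept. The sheep are separate animals.

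The 10 genes and the lists were chosen with earlier results of these data known. All 10 are named. From each other list, the 3 tested genes with the smallest p were named, plus any gene past the thresholds, and for FGF5 the 3 genes with the highest r. Of the genes so chosen, 2 are not reported here. The name table, of the assembly ARS-UI_Ramb_v3.0, matched all 10 identifiers to the same symbols; coordinates are those of the files.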

Additional observations from a re-analysis of the deposited data

How the results depend on the processing

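No paired analysis was possible because the sheep are separate animals whose labels hold no pairing between the breeds. FGF1, FGF5, FGF7, FGF18, FGFR1, FGFR2 and FGFR3 kept their direction in every alternative run. Of the 10 genes, 1 passed the thresholds with DESeq2, FGF18 (log2 fold change -0.73), beside 2.87% of all genes. Without SM sheep 128 the 1 gene was FGF7 (-1.97), beside 7.59% of all genes. With the other alternatives there were 0. As each sheep was left out, the count ranged from 0 to 1, FGF7 from -1.97 to -0.87 and FGF18 from -0.82 to -0.61. FGF2 turned negative with the exon length trend removed (-0.040) and ranged from -0.21 to 0.45 as each sheep was left out. FGF10 turned positive with upper quartile normalization (0.024) and with the length trend removed (0.021), ranging from -0.31 to 0.24. FGFR4 turned positive with limma-voom (6.39e-05), upper quartile normalization (0.029) and the length trend removed (0.10), ranging from -0.18 to 0.13. The ratio of FGFR2 to FGFR1 changed sign only without SM sheep 128 (0.032) and ranged from -0.29 to 0.032. Of the pathway lists, 1 gene passed with DESeq2 and 1 with the likelihood ratio test, and from 0 to 6 as each sheep was left out. Over all genes, 439 passed with DESeq2, 352 with the likelihood ratio test, 2 without a filter, 8 with the length trend removed and 2 with the newer quasi-likelihood dispersion, which was added after seeing the data. As each sheep was left out, this count ranged from 0 to 1163. The cause of these shifts was not tested. Upper quartile normalization turned the balance of genes at an unadjusted p under 0.05, from 1104 higher in SM and 1658 in STH sheep to 1437 and 1402, as did removal of the length trend (1584 and 1435). At 100 counts in 3 sheep, FGF1, FGF2 and FGFR4 were not tested. Depth limits FGF1, FGF2, FGF10 and FGFR4 most, with as few as 34 counts in a library.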

Other observations

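FGF23, a hormone of phosphate balance made in bone, was below the count filter and was singled out after its values had been seen. It had 57 counts in SM sheep 30034 and 0 counts in the other 5 sheep. No further hypothesis was tested.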
